A study of Mus musculus with 3 samples.

Results

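Zbtb46, Flt3 and 7 other genes used to recognise conventional dendritic cells (Zfp366, Cd209a, Batf3, Xcr1, Clec9a, Btla and Dpp4) were followed in RNA sequencing of splenic macrophages from leukemic mice. The genes were taken by symbol, through their NCBI gene ID, and all 9 were present among the 17615 genes listed in any library. In RefSeq's GRCm38.p6 annotation Zbtb46 and Dpp4 lie on chromosome 2, Flt3 on 5, Zfp366 on 13, Cd209a on 8, Batf3 on 1, Xcr1 on 9, Clec9a on 6 and Btla on 16. There were 3 libraries, 1 per group. The first came from C57BL/6J mice given GFP+BFP+ leukemia cells with much mM-CSF, the second from mice given cells with much sM-CSF, and the control is read as mice given leukemia cells with neither, since its title names no M-CSF and the protocol lists cells with none. M-CSF is the growth factor of macrophages, and the labels do not spell out its prefixes, nor which promoter or vector raised it, nor how many mice went into a library. In every group the recipients were 6 to 8 weeks old, received 800000 cells without irradiation and developed acute myeloid leukemia, with survival of 30 to 40 days. At day 18 macrophages were sorted from the spleen as GR1-negative cells with intermediate CD115 and with the macrophage marker that Adgre1 encodes, so no dendritic cell marker was part of the gate.

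Conventional dendritic cells take up antigen, carry it to T cells and present it. They develop from bone marrow precursors under FLT3 ligand, which acts through the receptor tyrosine kinase FLT3, and they are the main myeloid cells to express the zinc finger factor ZBTB46. In the mouse spleen a first subset, cDC1, depends on BATF3 and carries XCR1 and CLEC9A, and a second, cDC2, shares more surface proteins with monocytes. Several of the 9 genes are also active elsewhere: Flt3 in early progenitors and many leukemias, Btla in B and T cells, Dpp4 in T cells, and Batf3 in activated T cells.

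The macrophage genes behind the sort were expressed in all libraries. Adgre1 was at 67.5 FPKM (fragments scaled to gene length and sequencing depth) in the mM-CSF, 65.5 in the sM-CSF and 101 in the control library, and Csf1r, which encodes CD115, was at 222, 149 and 268 FPKM. Total estimated counts were 8.571e+06, 8.944e+06 and 9.088e+06 in the same order. With 1 library a group there was no replicate spread and no test between conditions, so every difference describes these libraries. In RNA from a cell population, fewer cells of a type and less RNA per cell cannot be told apart.

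Most of the 9 genes were much lower in the mM-CSF library than in the other two, with Batf3 and Btla as exceptions, and most were close to the control in the sM-CSF library. Summed over the 9 genes, expression was 93.7 FPKM in the mM-CSF, 270.4 in the sM-CSF and 273.9 in the control library. Btla, highest in the sM-CSF library, made up 44.2, 87.4 and 62.2 FPKM of these sums. The size rule for calling a gene lower or higher was a difference of log2(FPKM + 1) of at least 1 (2-fold), given 5 FPKM or more in whichever library was higher. All 9 genes passed that minimum in each comparison. On this rule 7 of 9 were lower and 0 higher in the mM-CSF than in the control library, where 15.1% of all 9789 genes tested were lower and 8.97% higher. In the sM-CSF library 1 of 9 was lower and 0 higher than in the control, against 1.63% and 0.785% of 9683 genes. For mM-CSF against sM-CSF 7 of 9 were lower and 0 higher, against 8.73% and 3.79% of 9574 genes. The median difference of the 9 genes was -2.31 (mM-CSF against control), -0.13 (sM-CSF against control) and -2.02 (mM-CSF against sM-CSF), while that of all genes tested was -0.05, 0.02 and -0.08. The comparisons share libraries, so their counts are not independent. The 9 genes were also chosen with earlier results of these data known, so setting them beside all genes is a description and not a test.

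**Figure D1:**
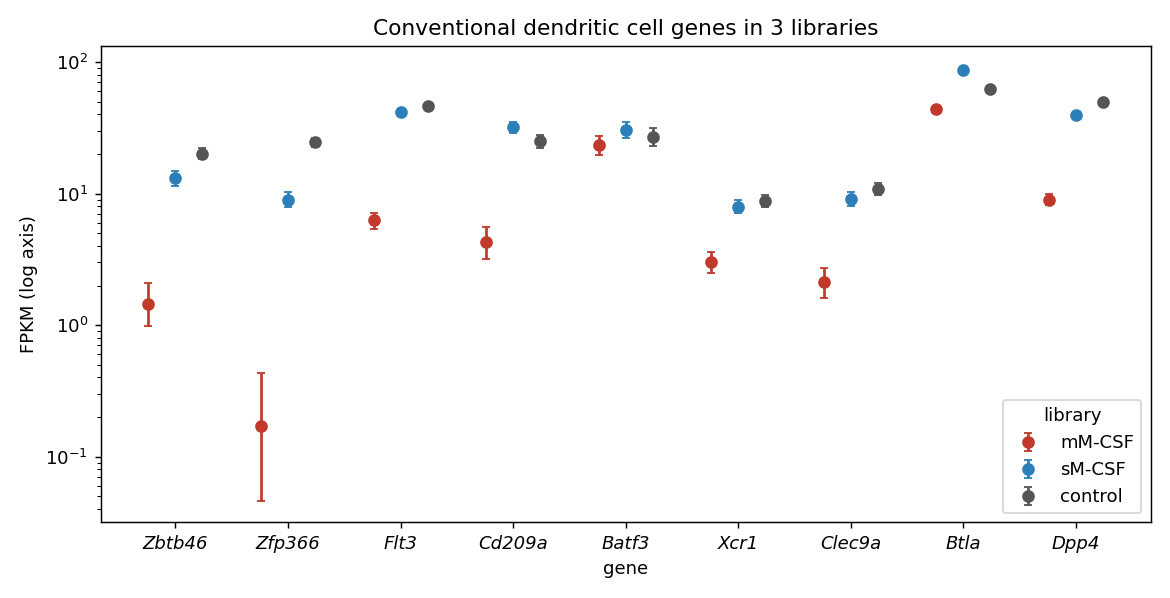
FPKM of the 9 conventional dendritic cell genes (log axis) in the mM-CSF (red), sM-CSF (blue) and control (grey) libraries, 1 library each. Bars are exact 95% Poisson intervals of the count on the FPKM scale and cover counting error only. The mM-CSF point is the lowest for all 9 genes, by far for Zfp366 and Zbtb46 and little for Batf3.

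Among the transcription factors, Zfp366 had the largest difference. Zfp366 (NCBI gene 238803), which encodes the dendritic cell zinc finger protein DC-SCRIPT, had 0.17 FPKM in the mM-CSF library, 9.02 in the sM-CSF library and 24.6 in the control. These levels rest on 4, 226 and 626 counted reads. All 3 levels were apart, with the sM-CSF library between the other two. As a share of counts Zfp366 was 148-fold lower in the mM-CSF than in the control library (95% interval 57.4 to 543), an exact conditional interval that covers counting error only. For sM-CSF against control it was 2.73-fold lower (2.34 to 3.19), which made it the 1 gene of the 9 to pass the size rule there.

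Zbtb46 (gene 72147) encodes a repressor that helps hold conventional dendritic cells in their resting state. It had 1.46 FPKM in the mM-CSF library, 13.05 in the sM-CSF library and 20.1 in the control, from 30, 261 and 416 reads. Its order was that of Zfp366. Its share of counts was 13.1-fold lower in the mM-CSF than in the control library (9.02 to 19.6) and 8.34-fold lower than in the sM-CSF library (5.70 to 12.6). Between the sM-CSF and control libraries it was 1.57-fold lower (1.34 to 1.84), short of the size rule although the counting interval lay apart from equal shares. By RefSeq's GRCm38.p6 spans the Zbtb46 locus overlaps Zgpat, Lime1 and other genes, and the sources used here do not say whether counting used strand, so its level is uncertain by whatever reads they share. Zgpat was at 15.1, 26.4 and 24.6 FPKM and Lime1 at 33.8, 34.1 and 23.2 FPKM in the mM-CSF, sM-CSF and control libraries. The estimated counts of Zbtb46 were whole in each library, unlike those of Xcr1 and Dpp4 below. The part of such reads in the level of Zbtb46 was not tested.

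Batf3 (gene 381319), the AP-1 family factor gene on which cDC1 development depends, stood apart from the other factors. It was at 23.3 FPKM in the mM-CSF, 30.6 in the sM-CSF and 27.1 in the control library, from 138, 188 and 169 reads. The 3 levels were within 1.31-fold of each other as shares of counts. The ratio of the mM-CSF to the control library was 0.87 with a counting interval of 0.69 to 1.09, and that of the sM-CSF to the control library was 1.13 (0.91 to 1.40), so neither difference was detectable at this depth. Against the sM-CSF library, Batf3 was 1.31-fold lower in the mM-CSF library (1.04 to 1.64). This depends on a trend with gene length described below. With that trend removed Batf3 passed the size rule as lower in the mM-CSF library, at -1.19 against the control and -1.08 against the sM-CSF library.

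Flt3 (gene 14255), the growth factor receptor of dendritic cell precursors and conventional dendritic cells, had 6.25 FPKM in the mM-CSF library, 42.0 in the sM-CSF library and 46.0 in the control, from 199, 1388 and 1542 reads. The sM-CSF and control libraries were close and the mM-CSF library stood far below both. The share of counts was 7.31-fold lower in the mM-CSF than in the control library (6.30 to 8.51) and 6.68-fold lower than in the sM-CSF library (5.76 to 7.79). Between the sM-CSF and control libraries the ratio was 0.91 (0.85 to 0.98).

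Xcr1 and Clec9a mark cDC1. Xcr1 (gene 23832), the receptor for the chemokine XCL1, was at 3.0 FPKM in the mM-CSF, 7.97 in the sM-CSF and 8.76 in the control library, a 2.90-fold lower share in the mM-CSF library than in the control (2.35 to 3.61). Clec9a (gene 232414), a C-type lectin that senses actin exposed by dead cells, was at 2.12, 9.06 and 10.9 FPKM, 5.15-fold lower (3.89 to 6.91). Both were near the control level in the sM-CSF library, with ratios of 0.91 (0.78 to 1.07) for Xcr1 and 0.85 (0.72 to 1.001) for Clec9a. The interval of Clec9a just reached equal shares. The 3 cDC1 genes thus differed in size between the mM-CSF and control libraries, with counting intervals that did not overlap: Clec9a differed most, Xcr1 less and Batf3 not detectably, an order that did not hold with the trend with gene length removed (-1.72 for Clec9a, -0.72 for Xcr1 and -1.19 for Batf3). The estimated counts of Xcr1 (116.02, 320.64 and 357.45) were not whole, as happens where reads are divided between genes, and its values are uncertain.

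Cd209a (gene 170786), a C-type lectin of the DC-SIGN family found on splenic cDC2 and monocyte-derived cells, had 4.25 FPKM in the mM-CSF library, 32.0 in the sM-CSF library and 24.97 in the control, from 54, 422 and 334 reads. Here the sM-CSF library was highest and the mM-CSF library lowest. The share of counts was 5.83-fold lower in the mM-CSF than in the control library (4.37 to 7.93) and 7.49-fold lower than in the sM-CSF library (5.63 to 10.1). In the sM-CSF library it was 1.28 times the control share (1.11 to 1.49). Dpp4 (gene 13482), a surface peptidase also called CD26 that splenic cDC1 carry, was at 8.98, 39.4 and 49.4 FPKM. It was 5.15-fold lower in the mM-CSF than in the control library (4.63 to 5.73), and its ratio of the sM-CSF to the control library was 0.83 (0.78 to 0.88). The counts of Dpp4 (411.03, 1821.51 and 2243.06) were not whole and its values are uncertain.

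Btla (gene 208154), an inhibitory receptor of lymphocytes and cDC1, was the most abundant of the 9 genes in each library and had another pattern. It had 44.2 FPKM in the mM-CSF library, 87.4 in the sM-CSF library and 62.2 in the control. The sM-CSF library was highest and no comparison passed the size rule. The ratio was 0.71 for mM-CSF to control (0.66 to 0.77) and 1.41 for sM-CSF to control (1.33 to 1.496), and Btla was 1.97-fold lower in the mM-CSF than in the sM-CSF library (1.84 to 2.11). B cells also express Btla, and B cell genes were abundant in all libraries. Their summed level over 11 genes was 2884 FPKM in the mM-CSF, 2773 in the sM-CSF and 1511 in the control library, and the part of B cells in the level of Btla was not tested.

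**Figure D2:**
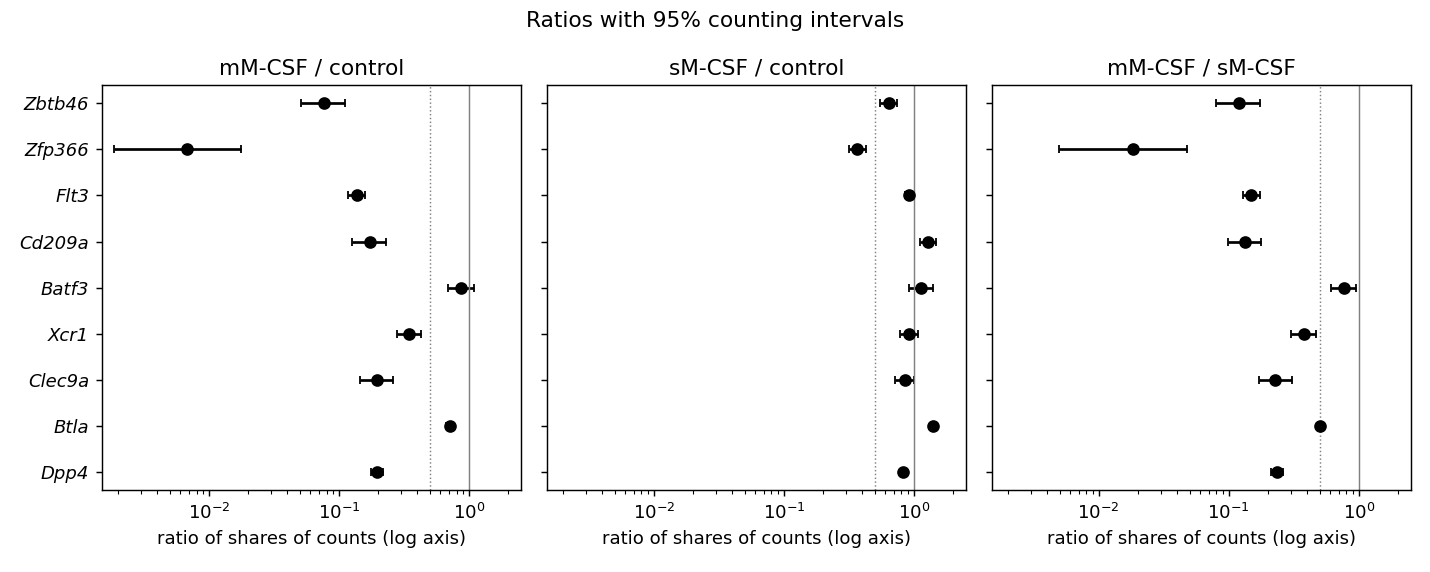
Ratio of the shares of counts (log axis) of each gene for mM-CSF over control, sM-CSF over control and mM-CSF over sM-CSF. Points are ratios, bars exact 95% counting intervals, the solid line equal shares and the dotted line a 2-fold lower share; in the middle panel only Zfp366 lies left of the dotted line, with 0.37.

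The order of the 9 levels per length changed with the library. In the mM-CSF library it ran Btla, Batf3, Dpp4, Flt3, Cd209a, Xcr1, Clec9a, Zbtb46 and Zfp366, from 44.2 to 0.17 FPKM. In the sM-CSF library it ran Btla, Flt3, Dpp4, Cd209a, Batf3, Zbtb46, Clec9a, Zfp366 and Xcr1, from 87.4 to 7.97 FPKM. In the control it ran Btla, Dpp4, Flt3, Batf3, Cd209a, Zfp366, Zbtb46, Clec9a and Xcr1, from 62.2 to 8.76 FPKM. In the mM-CSF library the counting intervals of neighbours overlapped from Flt3 through to Zbtb46. In the sM-CSF library they overlapped for Flt3 with Dpp4, for Cd209a with Batf3 and along the last 3 genes, and in the control for Dpp4 with Flt3, along Batf3, Cd209a and Zfp366, and for Clec9a with Xcr1. Zfp366 thus had no level apart from Cd209a in the control and was the lowest of all in the mM-CSF library.

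The 7 genes that were lower in the mM-CSF library run in length from 1484 bases (Cd209a) to 5255 bases (Dpp4 in that library) and Batf3 has 712, so their differences were set beside a trend with gene length. Long genes were lower in the mM-CSF library: across 9213 genes Spearman's rho between length and the difference from the control was -0.69, and across 9372 genes it was -0.45 for sM-CSF against control, a description over genes with no test. With the running median over 20 length bins subtracted, 7 of 9 genes were again lower in the mM-CSF than in the control library, and 0 higher, against 7.94% and 2.94% of genes tested, but not the same 7. Xcr1 (difference -1.29, length 4453 bases) no longer passed, at -0.72, and Batf3 (difference -0.21, length 712 bases) now did, at -1.19. The other 6 remained lower, at -4.37 for Zfp366, -3.24 for Zbtb46, -2.79 for Cd209a, -2.34 for Flt3, -1.72 for Clec9a and -1.61 for Dpp4. The same exchange of Xcr1 (-0.67) for Batf3 (-1.08) held for mM-CSF against sM-CSF, where 7 genes were lower and 0 higher against 4.68% and 1.99% of genes. In the sM-CSF against the control library Zfp366 was again the 1 gene lower (-1.41) and 0 were higher, against 1.79% and 0.485% of genes. What gives rise to the trend was not tested.

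Beside genes of their own length the strongest of the 9 stood well out. Among 461 genes of 2198 to 2416 bases, the length bin of Zbtb46, 5.21% were lower in the mM-CSF than in the control library and the median difference was 0.14, against -3.10 for Zbtb46. Among 461 genes of 3635 to 3970 bases, the bin of Flt3, 17.8% were lower with a median of -0.40, against -2.70 for Flt3. For Dpp4, in a bin of 4816 to 5588 bases, 30.4% were lower with a median of -0.73. For Batf3, in a bin of 55 to 750 bases, the median was 1.09 higher in the mM-CSF library, so that a level close to the control put Batf3 below most short genes. By rank from the lowest difference among 9789 genes, Zfp366 was at 9, Zbtb46 at 41, Flt3 at 83, Dpp4 at 159 and Cd209a at 166. With the length trend removed the ranks were 19 for Zfp366, 50 for Zbtb46, 79 for Cd209a, 142 for Flt3 and 366 for Dpp4.

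**Figure D3:**
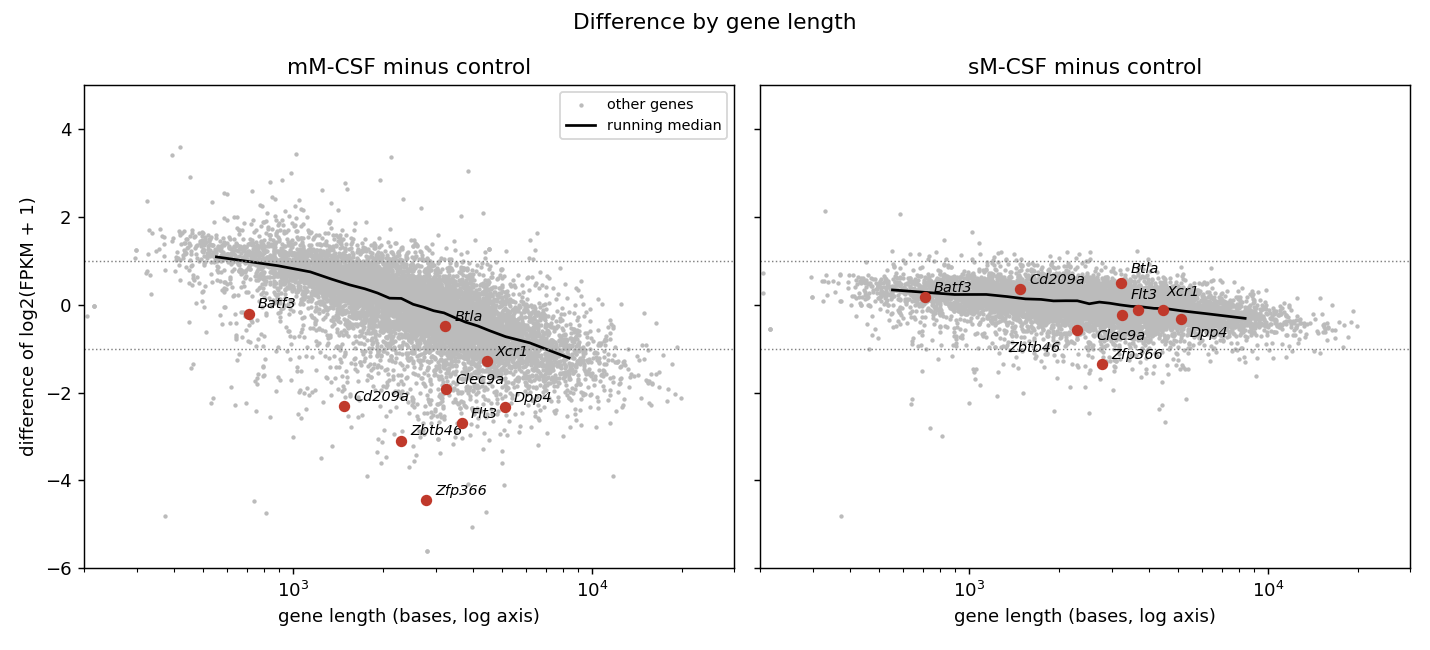
Difference of log2(FPKM + 1) against gene length in bases (log axis), mM-CSF minus control (left) and sM-CSF minus control (right), for genes of 200 bases or more with at least 5 FPKM in the higher library. Red points are the 9 genes, the line is the running median over 20 length bins and dotted lines mark 2-fold; on the left Zfp366 at -4.45 and Zbtb46 at -3.10 lie far under the line, and Xcr1 at -1.29 nearer to it.

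Promoter sequences are shown for the 4 genes that were lower in the mM-CSF library and whose listed start is the first base of RefSeq's gene span, since these share a direction. Of the 9 genes, 8 had an entry in RefSeq's promoter table (GRCm38.p6) and Zfp366 had none. The entry of Zbtb46 begins 68874 bases inside its span and is not shown. Each sequence is the 250 bases before the gene start, 5′ to 3′ on the gene's strand, in lower case, with capitals at matches to GGAAGT, a core bound by ETS factors such as PU.1, on either strand.
Flt3, chr5:147400490-147400739, minus strand: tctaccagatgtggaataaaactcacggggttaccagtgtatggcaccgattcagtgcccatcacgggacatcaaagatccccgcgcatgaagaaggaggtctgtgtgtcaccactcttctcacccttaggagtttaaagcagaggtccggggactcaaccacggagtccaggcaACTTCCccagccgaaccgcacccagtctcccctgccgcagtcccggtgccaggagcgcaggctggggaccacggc
Cd209a, chr8:3748985-3749234, minus strand: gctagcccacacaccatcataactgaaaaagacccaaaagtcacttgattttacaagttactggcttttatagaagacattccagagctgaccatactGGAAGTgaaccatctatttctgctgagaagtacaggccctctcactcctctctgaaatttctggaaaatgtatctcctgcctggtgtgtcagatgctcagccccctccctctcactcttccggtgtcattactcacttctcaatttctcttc
Xcr1, chr9:123862030-123862279, minus strand: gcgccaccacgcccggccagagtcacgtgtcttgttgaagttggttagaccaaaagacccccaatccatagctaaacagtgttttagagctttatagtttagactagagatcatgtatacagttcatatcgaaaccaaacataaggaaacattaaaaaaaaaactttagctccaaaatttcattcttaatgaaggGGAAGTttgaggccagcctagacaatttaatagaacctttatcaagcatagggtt
Clec9a, chr6:129408612-129408861, plus strand: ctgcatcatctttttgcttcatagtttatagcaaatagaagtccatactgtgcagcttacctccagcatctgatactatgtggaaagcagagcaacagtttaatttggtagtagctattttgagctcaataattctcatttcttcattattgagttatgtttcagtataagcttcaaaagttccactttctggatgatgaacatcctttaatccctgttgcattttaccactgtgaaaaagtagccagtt
GGAAGT was found in 6 of the 8 windows (Flt3, Cd209a, Batf3, Xcr1, Btla and Dpp4), 1 match each, and in 19.7% of 32851 windows of the same length. The AP-1 motif TGANTCA, searched on both strands, was found in the internal window of Zbtb46 and in 6.75% of windows. An IRF motif (GAAA, any 2 bases, GAAA), searched likewise, was found in that of Dpp4 and in 2.98%. No 2 motifs overlapped in the windows shown. The windows differed in CpG content, with 13 CpG in Flt3 and 27 in Batf3 against 1 in Cd209a, 5 in Xcr1 and 0 in Clec9a, around a median of 6 over all windows. A match describes letters and is not a bound site.

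Other transcription factor genes of conventional dendritic cells were in part lower in the mM-CSF library. Of 15 such genes 9 were lower and 0 higher than in the control, against 15.1% and 8.97% of all genes tested. The median difference of the 15 was -1.04, beside -0.07 over 12782 genes at 1 FPKM or more. With the length trend removed 5 were lower and 0 higher, against 7.94% and 2.94%. Klf4, a Krüppel-like factor gene also used by monocytes, was at 3.89 FPKM in the mM-CSF, 13.3 in the sM-CSF and 39.5 in the control library. The ETS repressor gene Etv3 was at 8.40, 37.1 and 52.9 FPKM, the repressor gene Zeb2 at 4.76, 10.1 and 24.6, and the repressor gene Bcl6 at 14.2, 34.4 and 62.3. Zeb2 was short of 2-fold with the length trend removed (-0.94). In the sM-CSF library 2 of 15 were lower than in the control, Klf4 and Zeb2, against 1.63% of all genes tested. With the length trend removed Klf4 alone was lower, against 1.79%. Irf8, Id2 and Irf4 were singled out after their values were seen and passed in no comparison. Irf8, which cDC1 require, was at 127, 142 and 132 FPKM, Id2, also needed by cDC1, at 133, 132 and 143, and Irf4, a factor of cDC2, at 28.8, 35.2 and 35.2. With the length trend removed their differences between the mM-CSF and control libraries were 0.04 for Irf8, -0.72 for Id2 and 0.35 for Irf4. Since they were chosen by their values, no contrast with Zbtb46 and Zfp366 is drawn.

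Of 10 further cDC1 genes 5 were lower and 1 higher in the mM-CSF than in the control library, against 15.1% and 8.97% of all genes tested. The 1 higher gene is near the share over all genes. Their median difference was -1.05. With the length trend removed 4 were lower and 1 higher, against 7.94% and 2.94%. Tlr11, a receptor for a parasite protein, was at 0.72 FPKM in the mM-CSF, 9.89 in the sM-CSF and 9.41 in the control library, and Tlr3, for double-stranded RNA, at 1.44, 5.09 and 7.21. The endocytic receptor gene Ly75 was at 0.84, 4.4 and 6.03 FPKM, and Wdfy4, needed for cross-presentation, at 23.9, 70.1 and 90.1, which was short of 2-fold (-0.65) with the length trend removed. The gene that was higher, the sorting nexin gene Snx22, was at 119, 58.1 and 44.3 FPKM. None of the 10 passed between the sM-CSF and control libraries, where 1.63% of all genes tested were lower and 0.785% higher.

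Of 10 further cDC2 genes 5 were lower and 1 higher in the mM-CSF than in the control library, against 15.1% and 8.97% of all genes tested. The 1 higher gene is near the share over all genes. Their median difference was -0.68. With the length trend removed 3 were lower and 0 higher, against 7.94% and 2.94%. The lectin gene Clec4a4, which marks cDC2 of the spleen, was at 5.27 FPKM in the mM-CSF, 33.2 in the sM-CSF and 31.7 in the control library. Itgax, which encodes CD11c, was at 28.1, 133 and 163 FPKM, the adhesion gene Esam at 2.38, 9.28 and 7.66, and the receptor gene Notch2, on which such cells depend, at 10.2, 32.0 and 50.1. Notch2 ended just short of 2-fold with the length trend removed (-0.98). The gene that was higher, Clec12a, was not among the 4 of largest difference. Its levels were 82.5, 32.0 and 37.9 FPKM (difference 1.10, and 0.96 with the trend removed). Sirpa, Mgl2, Clec10a and Ltbr passed the size rule in neither direction. None of the 10 passed between the sM-CSF and control libraries, where 1.63% of all genes tested were lower and 0.785% higher.

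Among 13 genes of activated and migratory dendritic cells, 5 were lower and 0 higher in the mM-CSF than in the control library. The shares over all genes tested were 15.1% and 8.97%. With the length trend removed 7 were lower and 0 higher, against 7.94% and 2.94%. The medians were -0.93 and -1.15 with the trend removed, over the 12 at 1 FPKM or more. Cacnb3, a calcium channel subunit gene, was at 5.83 FPKM in the mM-CSF, 32.9 in the sM-CSF and 38.4 in the control library. Fscn1, which encodes the actin bundler fascin, was at 18.9, 60.1 and 78.5 FPKM, Il12b, a subunit of the cytokine IL-12, at 0.51, 2.09 and 5.80, and Il4i1, an amino acid oxidase gene, at 37.7, 94 and 82.1. In the sM-CSF library Il12b was the 1 gene of 13 lower than in the control, against 1.63% of all genes tested.

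Of 14 FLT3 signalling genes, the ligand gene included, 5 were lower and 0 higher in the mM-CSF than in the control library (median -0.85). Over all genes tested 15.1% were lower. With the length trend removed 1 of 14 was lower (median -0.28), near the 7.94% over all genes tested. The gene that remained was Cbl, a ubiquitin ligase that marks activated receptor tyrosine kinases for degradation, at 1.15 FPKM in the mM-CSF, 12.5 in the sM-CSF and 36.1 in the control library. The adaptor gene Gab2 was at 2.48, 5.88 and 11 FPKM, Cblb at 7.27, 17.7 and 24.6, and the kinase gene Mtor at 3.23, 7.41 and 9.83. Cbl was also the 1 gene of 14 lower in the sM-CSF than in the control library, against 1.63% of all genes tested. Cbl had the order of Zbtb46 and Zfp366, and so had Gab2, Cblb, Mtor and other genes above, such as Flt3 and Klf4.

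Ligands of these receptors differed among themselves. Of 3 ligand genes 1 was higher and 0 lower in the mM-CSF than in the control library, against 8.97% and 15.1% of all genes tested. With the length trend removed 0 were higher and 1 lower, against 2.94% and 7.94%. Xcl1, the ligand of XCR1 made by NK cells and T cells, was at 191 FPKM in the mM-CSF, 69.3 in the sM-CSF and 74.4 in the control library, while Xcr1 was lowest in the mM-CSF library. The difference of Xcl1 was 1.35, and 0.26 with the length trend removed. Flt3l, the ligand of FLT3, was at 31.1, 27.9 and 21.3 FPKM. Tnfrsf14, the partner of BTLA, was at 15.3, 19.5 and 30.6 FPKM, a difference of -0.95 that reached -1.84 with the trend removed.

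**Figure D4:**
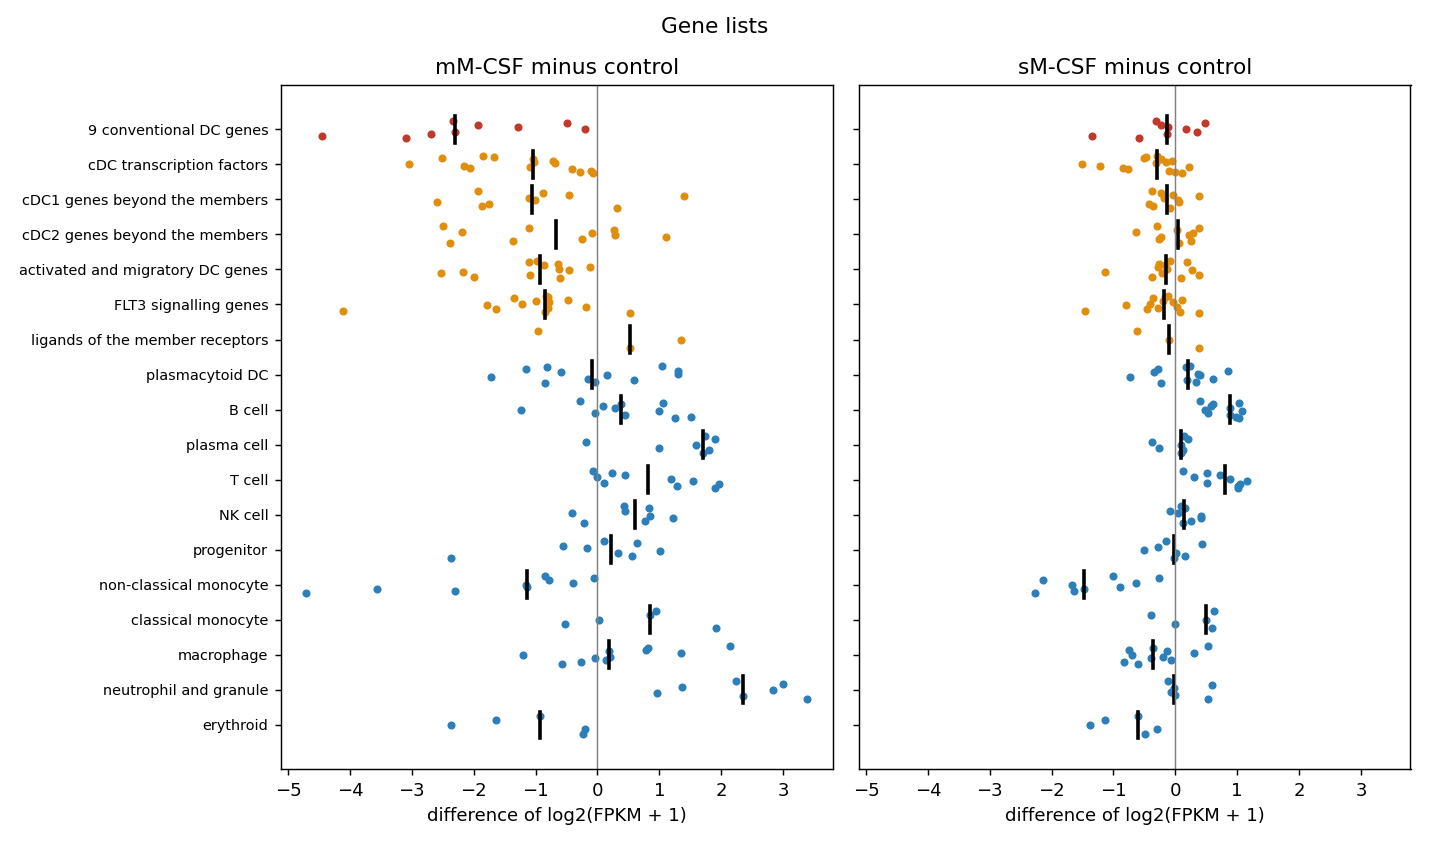
Difference of log2(FPKM + 1) for each gene at 1 FPKM or more in either library, mM-CSF minus control (left) and sM-CSF minus control (right), on the same axis. Red points are the 9 genes, orange points related lists, blue points markers of other cell types, and black bars list medians; the red median is at -2.31 on the left and -0.13 on the right.

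Genes whose pattern was nearest to that of Zbtb46 and Flt3 were sought among the 7330 genes that reached 10 FPKM in some library, by Euclidean distance of log2(FPKM + 1) centred on the gene's mean over the 3 libraries. With 3 points per gene many genes lie close. Nearest to Zbtb46 were Grk3 (distance 0.11; 7.04 FPKM in the mM-CSF, 42.6 in the sM-CSF and 72.1 in the control library), Tlr9 (0.12), Plxnc1 (0.13), Pmaip1 (0.14) and Tbc1d9 (0.17). Nearest to Flt3 were Adam23 (distance 0.06; 4.97, 35.1 and 40.0 FPKM), Ddr1 (0.14), Adam8 (0.15), Apol7c (0.15) and Havcr2 (0.16). Flt3 ranked 21 for Zbtb46, and Zbtb46 ranked 26, Cd209a 28 and Dpp4 35 for Flt3, while Batf3 ranked 2699 and Btla 1546. Zfp366 ranked 695 for Flt3, at a distance of 1.27 beside 1.62 for Btla, and Xcr1, under 10 FPKM in every library, was not in the search.

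Markers of other cell types moved between the libraries as well, none of the lists had a gene at 0 in any library, and their part in the results above was not tested. In the mM-CSF against the control library 6 of 7 neutrophil and granule genes (summed level 1010 FPKM in the mM-CSF, 189.7 in the sM-CSF and 180.3 in the control library), 5 of 7 plasma cell genes (4418, 1459 and 1402 FPKM) and 5 of 10 T cell genes (560.4, 420.3 and 222.8 FPKM) were higher and 0 lower. B cell genes were higher in 3 of 11 and lower in 1, NK cell genes (349.5, 266.5 and 219.2 FPKM) higher in 1 of 8, and classical monocyte genes (415.5, 293.6 and 208.2 FPKM) higher in 1 of 6. Over all genes tested 8.97% were higher and 15.1% lower, so 1 gene called in a list this short is near these shares. Non-classical monocyte genes were lower in 5 of 9, with 520.6, 558.4 and 1228 FPKM, and erythroid genes in 2 of 5, with 3563, 3171 and 4250 FPKM. Of 11 macrophage genes 2 were higher and 1 lower, with 2364, 1200 and 1395 FPKM. Their median difference was 0.19, and C1qa alone gave 1129, 366 and 254 FPKM of these sums. In the sM-CSF against the control library 3 of 11 B cell and 4 of 10 T cell genes were higher, against 0.785% of all genes tested. There 6 of 9 non-classical monocyte and 2 of 5 erythroid genes were lower, against 1.63%. No gene of the other marker lists passed. With the length trend removed, the mM-CSF against control counts became 6 of 7 neutrophil and granule, 3 of 7 plasma cell, 5 of 10 T cell, 2 of 6 classical monocyte and 2 of 11 macrophage genes higher. Lower were 6 of 9 non-classical monocyte and 5 of 5 erythroid genes, and no B or NK cell gene was called. Over all genes tested 2.94% were then higher and 7.94% lower. The B and T cell genes higher in the sM-CSF library then numbered 0. Flt3 is also a gene of progenitors, whose 8 markers summed to 54.5, 79.3 and 83.9 FPKM. Their median difference between the mM-CSF and control libraries was 0.22 (0.42 with the length trend removed), so the sum does not describe most of them. Kit, the 1 progenitor gene that was lower in the mM-CSF library, was at 6.02, 34.7 and 35.0 FPKM, close to the pattern of Flt3, while Cd34 was at 6.31, 4.53 and 3.97 FPKM and did not pass the size rule.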

How the data were processed

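RNA from sorted splenic macrophages, 1 ug per library per the labels, was sequenced as 3 libraries on BGISEQ-500. Bowtie2 (2.2.5) and RSEM appear in the submitters' processing notes, with no roles; build, annotation and strand use are not given in the sources used here. Each deposited table gives, per the file headers, for every NCBI ID the gene's length, FPKM and expected count. Expected counts, estimated by the authors and not normalized, were rounded to whole numbers for intervals and called whole within 0.005. The FPKM values were scaled by the authors. Symbols came from RefSeq's GRCm38.p6 table (54 genes had none); unlisted genes were taken as 0.

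The size rule used log2(FPKM + 1), which understates the change of low genes. List counts are out of all genes of a list, while shares over all genes count only those that passed the minimum. For mM-CSF against control 8 of 10 cDC1, 9 of 10 cDC2, 12 of 13 activated and 10 of 12 plasmacytoid genes passed it. So did 6 of 7 neutrophil and granule, 5 of 6 classical monocyte and 5 of 8 progenitor genes, and every gene of the other lists. Ratios of shares of counts carry exact conditional (Clopper-Pearson) 95% intervals, for counting error only. The length trend is the running median over 20 bins of genes averaging at least 5 FPKM. The 9 genes and the 17 other lists were chosen with earlier results of these data known. Besides the 9 genes, up to 4 genes per list with the largest difference at 5 FPKM or more, and 5 nearest genes each for Zbtb46 and Flt3 were named, with Csf1r, Adgre1, Csf1, Kit, Cd34, Cd79a and Cd3e as context. The rule names these genes separately in each comparison, and not all are printed. The steps were tested on simulated counts. Python 3.11.15, numpy 2.4.6, pandas 2.3.3 and scipy 1.17.1 were used. Alternatives were 12 settings of pseudocount, minimum, scaling, length and size rule.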

Additional observations from a re-analysis of the deposited data

How the results depend on the processing

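With 1 library per group no replicate could be left out and no test was possible. No paired analysis was possible because no group has a second library. Of the 12 settings, a minimum of 10 FPKM left 4 genes in place of 7 lower in the mM-CSF than in the sM-CSF library, and a size rule of 3-fold left 0 in place of 1 lower in the sM-CSF than in the control library, both by the stricter rule itself. In the other settings the count of the 9 genes lower ranged from 6 to 7 (mM-CSF against control), stayed at 1 (sM-CSF against control) and ranged from 5 to 8 (mM-CSF against sM-CSF), and no gene was higher. Every difference of at least 2-fold kept its sign, but sizes moved: for mM-CSF against control, 7 of 9 moved beyond their counting interval with a pseudocount of 5 and 8 of 9 with TPM. Zfp366 (-4.45) was at -2.52 with a pseudocount of 5 and -6.52 with 0.1, and Zbtb46 (-3.10) at -1.96 and -3.69. Over all genes the mM-CSF against control counts ranged from 142 to 2111 higher (878 as reported) and 561 to 3406 lower (1480), the sM-CSF against control counts from 26 to 407 (76) and 40 to 562 (158), and the mM-CSF against sM-CSF counts from 64 to 1440 (363) and 208 to 2174 (836).

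Rescaling to TPM shifted the median of all genes by -0.45, -0.14 and -0.31 in these comparisons. It left 7.62%, 21.2% and 7.72% of calls higher in place of 37.2%, 32.5% and 30.3%. Median-of-ratios scaling gave 45.5%, 27.1% and 48.8%, upper-quartile scaling 46.9%, 32.3% and 45.3%, and CPM of counts 31.0%, 20% and 22.3%. Relative to all genes the median of the 9 genes in the mM-CSF against the control library was -2.26 as reported and -2.34 with TPM. Zfp366, with 4 reads in the mM-CSF library, is the value that depth limits most.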

Other observations

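Plasmacytoid dendritic cells are the interferon-producing relatives of conventional dendritic cells and also develop under FLT3 ligand. Of 12 of their genes 3 were higher and 2 lower in the mM-CSF than in the control library, with a median difference of -0.09. Over all genes tested 8.97% were higher and 15.1% lower. With the length trend removed 1 was higher and 1 lower, beside 2.94% and 7.94% of all genes tested. Siglech, their lectin marker, was at 3.37 FPKM in the mM-CSF, 5.69 in the sM-CSF and 6.90 in the control library. The factor gene Runx2 was at 3.08, 7.15 and 12.5 FPKM and was lower in the mM-CSF than in the control library (difference -1.72, and -0.92 with the trend removed), while Tcf4, the factor gene that defines these cells, was at 24.8, 18.5 and 16.1 FPKM and passed the size rule only with the trend removed (0.60 and 1.63). Ly6d, which B cell progenitors also express, was at 584, 428 and 236 FPKM and was higher in the mM-CSF than in the control library (1.30, and 0.31 with the trend removed). No gene of the list passed between the sM-CSF and control libraries, where 1.63% of all genes tested were lower and 0.785% higher. Siglech and Tcf4 were chosen after their values were seen.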
